A study of Danio rerio with 20 samples.

Results

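The transcriptome of zebrafish larvae that lacked aldh3a1 alone was set against that of wild type larvae. The comparison used 10 of the 20 libraries of the series, chosen by their labelled genotype: 5 aldh3a1 knockout libraries and 5 wild type libraries. All larvae, the wild type ones included, came from the Tg(fli1:EGFP) line, in which the fli1 promoter drives green fluorescent protein in endothelial cells. The aldh3a1 knockout larvae carried an intact glo1 gene. The other 10 libraries, 5 of the double knockout of glo1 and aldh3a1 and 5 of the glo1 knockout, served to set the effect of aldh3a1 loss beside the same loss in larvae without glo1. Per the labels, RNA was taken from larvae with no organ named, so every value below is an average over the tissues of the animal. In such bulk samples, fewer cells of a type and less RNA per cell cannot be told apart. The larval age, the allele of the knockout and the number of larvae in a library are not given in the sources used here.

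ALDH3A1 belongs to the aldehyde dehydrogenases, enzymes that oxidise reactive aldehydes to acids. In mammals it is best known from the cornea, where it is abundant and protects against aldehydes formed by light and lipid peroxidation. Methylglyoxal, a by-product of glycolysis, is detoxified mainly by glyoxalase 1, the product of glo1, and aldehyde dehydrogenases are a second route for dicarbonyls of this kind. The title of the series links loss of both genes to a methylglyoxal adduct, to small vessels and to glucose metabolism. The comparison of the aldh3a1 knockout with wild type asks what the loss of this enzyme changes by itself.

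Counts per library ranged from 35092716 to 37190519 over the 20 libraries, and 22234 of 32520 gene IDs had enough reads to be tested. Of these, 13637 (61.3%) passed the edgeR quasi-likelihood test at a Benjamini-Hochberg adjusted p below 0.05. There were 6527 higher genes (29.4%) and 7110 lower genes (32.0%), and any gene list is to be read against these shares. Both shares changed with the level of a gene, as given below, and the lists were not matched for level. A scaling by total counts alone gave 4667 higher and 8306 lower genes and moved the median log2 fold change of all genes to -0.11, against 0.00 with the TMM factors used throughout. In 9586 genes (43.1%) the 5 aldh3a1 knockout libraries did not overlap with the 5 wild type libraries. In a principal component analysis of the 10 libraries, the first component held 64.2% of the variance. It separated all aldh3a1 knockout libraries from all wild type libraries, and aldh3a1 knockout replicate 2 lay nearest to wild type. No gene ID carried the symbol aldh3a1, and the transcript itself was not analysed here. Transcripts of glo1 were 78.5 CPM in the knockout against 66.6 CPM in wild type (log2 fold change 0.24, SE 0.07, edgeR adjusted p = 0.0064; 0.13, edgeR adjusted p = 0.138 with total-count scaling). In the text, the numbers in brackets after a gene's CPM values are its log2 fold change, aldh3a1 knockout over wild type, and its standard error. A gene is said to rise or fall only where its edgeR adjusted p was below 0.05.

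The composition of the RNA differed between the genotypes in ways that touch every result below. The summed level of 203 skeletal and heart muscle genes was 55079 to 86991 CPM in the aldh3a1 knockout libraries, against 108927 to 134542 CPM in those of wild type, and that of 67 liver genes was 1682 to 2923 CPM in the aldh3a1 knockout libraries, against 3707 to 7798 CPM in those of wild type. The 79 cytosolic ribosomal protein genes took 110469 to 137324 CPM in the aldh3a1 knockout libraries, against 71952 to 84823 CPM in those of wild type. The 13 mitochondrially encoded genes made up 3.65% to 4.28% of counts in the aldh3a1 knockout libraries and 2.56% to 3.16% of those of wild type. None of these ranges overlapped. CPM is a share of the library on the TMM scale, so a change in a large group also moves the values of others. The part of these shifts in the results below was not tested. TMM factors were 0.9398 to 1.033 in the aldh3a1 knockout libraries, against 1.042 to 1.112 in those of wild type. Beside plain shares, CPM values are therefore raised in the knockout relative to wild type. Summed CPM values without these factors were not computed.

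Large changes were mostly decreases, and they lay among genes of low abundance. With a log2 change of at least 1, 512 genes (2.3%) were higher and 3040 (13.7%) lower. The pattern followed the level of a gene. Level here is the mean CPM in the 10 glo1 and double knockout libraries, which the comparison does not use. The 5 double knockout libraries lack aldh3a1 too, so a gene that also fell there is placed at a lower level by that fall. The part of this in the pattern was not tested. Among 3200 genes at 1 to 3 CPM, 882 (27.6%) fell at least 2-fold and 98 (3.06%) rose at least 2-fold. Among 5302 genes at 10 to 30 CPM the falls numbered 296 (5.58%), and among 1031 genes at 100 to 300 CPM they numbered 23 (2.23%). The median log2 fold change was -0.42 at 1 to 3 CPM, 0.08 at 10 to 30 CPM and 0.33 among the 413 genes at or above 300 CPM. Abundant genes were called higher more often, 61.0% of those at or above 300 CPM against 12.8% at 1 to 3 CPM. Genes called lower made up 47.1% at 1 to 3 CPM and 15.4% at 100 to 300 CPM.

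**Figure D1:**
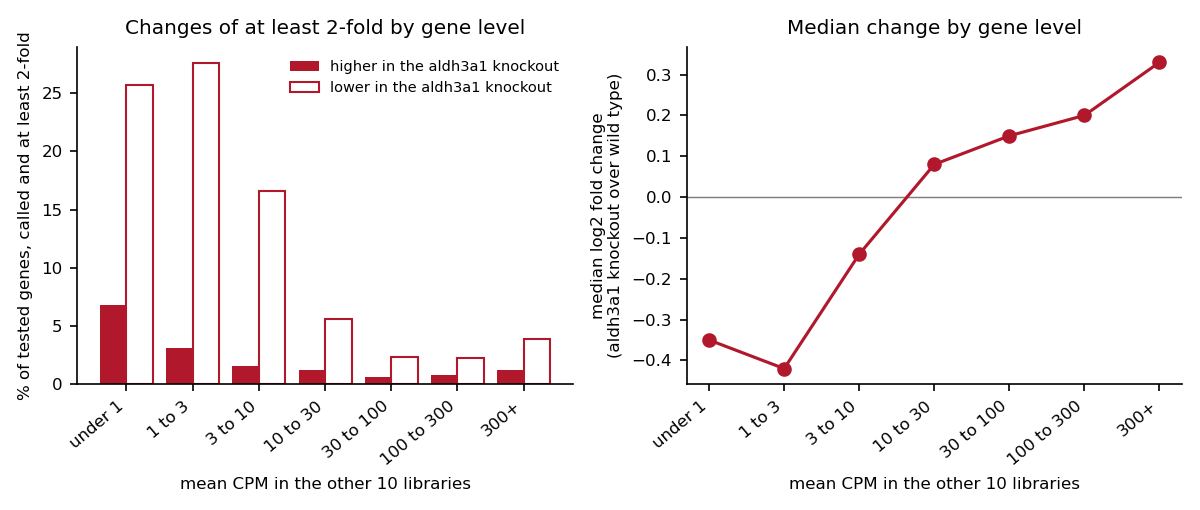
Share of tested genes that passed the edgeR test with at least a 2-fold change (left) and median log2 fold change (right), aldh3a1 knockout over wild type, for 7 classes of mean CPM in the 10 libraries of the other 2 genotypes. Decreases took 27.6% of genes at 1 to 3 CPM and 2.23% at 100 to 300 CPM, while the median climbed from -0.42 to 0.33 across these classes and the most abundant one.

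Genes that share a symbol showed the same split. Zebrafish keep many gene pairs from an ancient genome duplication, and 1521 symbols were carried by 2 tested IDs, leaving out the liver, gut, pancreas, muscle and ribosome lists. In 1000 of these pairs (65.7%) the less abundant ID had the lower log2 fold change. Abundance was again taken from the glo1 and double knockout libraries, so an ID that also fell in the double knockout can be ranked lower by that fall. It fell at least 2-fold in 360 pairs, whereas the more abundant ID did so in 126. The medians were -0.32 for the less abundant and 0.06 for the more abundant IDs. Reads of near-identical pairs can be shared by the counting, so these values are uncertain for single pairs. Gene span, the distance along the genome from the start to the end of a gene, moved with the fold change as well. It was known for 13102 of 14662 genes with a symbol of their own (89.4%). The fifth with the shortest spans (median 4.34 kb) had a median log2 fold change of 0.25, and the fifth with the longest (median 94.0 kb) one of -0.17. At least 2-fold lower were 6.71% of the first and 20.9% of the second.

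The largest increases outside the liver, gut, muscle and ribosome lists included genes known from immunity, from the eye and pineal organ, and from neural progenitors. tnfrsf14, a tumour necrosis factor receptor family member, stood at 7.27, 7.38, 8.21, 12.2 and 10.3 CPM in the 5 aldh3a1 knockout libraries and at 0.432, 1.41, 1.28, 0.39 and 0.272 CPM in the 5 wild type libraries (log2 fold change 3.58, SE 0.31, edgeR adjusted p = 4.27e-09). Every knockout library lay far above the wild type range, and a lack of overlap was part of the rule that chose these genes. ctsb, which encodes the lysosomal protease cathepsin B, stood at 26.9, 35.9, 55.6, 60.3 and 40.8 CPM in aldh3a1 knockout larvae against 5.03, 12.3, 18.4, 2.94 and 7.28 CPM in wild type larvae (log2 fold change 2.26, SE 0.39, edgeR adjusted p = 8.47e-05). The libraries spread widely within each genotype. cfp encodes properdin, which stabilises the alternative complement convertase, and was at 10.6, 7.69, 9.23, 7.99 and 9.94 CPM in the knockout against 2.46, 3.32, 3.48, 2.76 and 1.71 CPM in wild type (log2 fold change 1.73, SE 0.17, edgeR adjusted p = 6.15e-09). malat1, a long RNA kept in the nucleus, was at 2727, 2786, 2482, 3367 and 3018 CPM in the knockout against 939.8, 847, 977, 1118 and 972 CPM in wild type (log2 fold change 1.57, SE 0.10, edgeR adjusted p = 1.19e-10). The spread within each genotype was small beside the gap between them.

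A pineal opsin, parapinopsinb, measured 14, 12.1, 12.1, 16.9 and 16.4 CPM in the knockout libraries and 2.72, 3.93, 3.66, 4.63 and 4.19 CPM in wild type (log2 fold change 1.9, SE 0.14, edgeR adjusted p = 1.17e-10). The inhibitory subunit of the cone phosphodiesterase, pde6ha, averaged 164 ± 34.3 CPM in aldh3a1 knockout larvae and 60.2 ± 20.5 CPM in wild type larvae (log2 fold change 1.45, SE 0.27). The Notch-responsive repressor her4.1, a mark of neural progenitors, was at 8.91, 7.83, 11.4, 11 and 12.7 CPM in the knockout against 3.35, 3.47, 4.03, 3.56 and 4.68 CPM in wild type (log2 fold change 1.44, SE 0.14, edgeR adjusted p = 4.62e-09). The related repressor hes2 (ENSDARG00000068168) rose by 1.51 on the log2 scale (SE 0.16). The other genes of the 12 largest increases were the cyclic GMP phosphodiesterase gene pde5aa, the RNA-binding protein gene hnrnpa0b, the adaptor gene samsn1b and smim36, with log2 fold changes of 1.51, 1.41, 1.41 and 1.41.

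The 12 largest decreases outside those lists, ranked by the same rule, included matrix, metabolic and channel genes. The lists were written by hand and do not hold every gene of liver, gut or muscle. Genes of these tissues fell in the same libraries, and the part of tissue composition in these decreases was not tested. Genes below 5 CPM could fall further, such as acanb (-3.84, SE 0.38). col8a1a, a collagen that the zebrafish notochord sheath requires, was at 2.04, 2.5, 1.21, 1.4 and 2.25 CPM in the knockout against 23.8, 23.4, 17.7, 14 and 8.59 CPM in wild type (log2 fold change -3.22, SE 0.25, edgeR adjusted p = 3.38e-09). ugp2 (ENSDARG00000005578) encodes the enzyme that makes UDP-glucose for glycogen and stood at 3.06, 2.78, 2.11, 2.71 and 1.5 CPM in the knockout against 26.1, 26, 23.8, 19.6 and 10.8 CPM in wild type (log2 fold change -3.12, SE 0.23, edgeR adjusted p = 1.37e-09). For both genes wild type replicate 5 was the lowest of its genotype. The inward rectifier potassium channel gene kcnj12b measured 3.17, 3.51, 2.55, 2.42 and 2.79 CPM in the knockout and 19.8, 22.5, 14.7, 16.6 and 19.1 CPM in wild type (log2 fold change -2.68, SE 0.23, edgeR adjusted p = 6.72e-09). Further decreases were those of the acute phase gene crp5 (-3.29, SE 0.46), the glutaminase gene gls2 (ENSDARG00000069095) (-3.18, SE 0.37) and meltf, which encodes an iron-binding protein of the transferrin family (-3.19, SE 0.51). The asialoglycoprotein receptor gene asgr1a, known from hepatocytes, fell by 2.68 (SE 0.26), and a1cf, an RNA editing cofactor known from liver and gut, by 3.05 (SE 0.42). The remaining 4 were colq, which anchors acetylcholinesterase at the neuromuscular junction, the neuroligin gene nlgn4xb, sh3bgr and znf648, with log2 fold changes of -2.88, -2.71, -2.9 and -2.75.

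**Figure D2:**
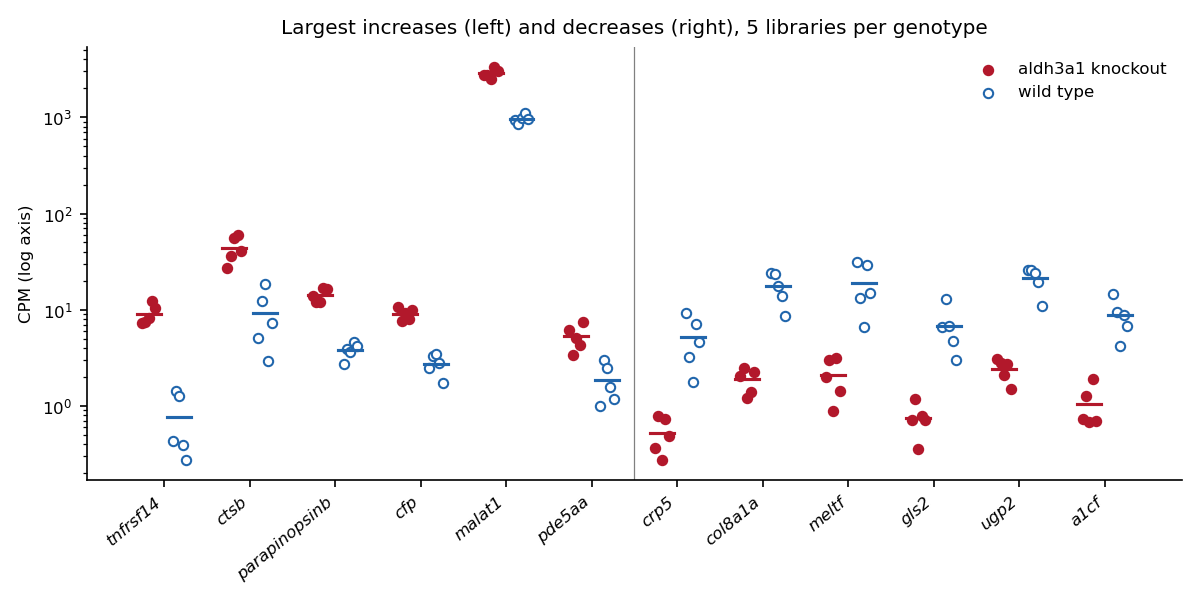
CPM on a log axis in each of the 5 aldh3a1 knockout libraries (left of each pair, filled) and the 5 wild type libraries (right, open) for the 6 largest increases and the 6 largest decreases, with the mean as a bar. The genes were chosen for having no overlap between the genotypes. Among the 12, tnfrsf14 and crp5 have the largest log2 fold change of each direction, 3.58 and -3.29.

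The nervous system changed in both directions. Genes of neural progenitors and neurogenesis rose in 35 of 46 tested members (76.1%) and fell in 5, with a median log2 fold change of 0.44 against 0.00 over all genes. The growth factor midkine, mdk (ENSDARG00000020708), was at 604, 577, 655, 653 and 709.7 CPM in the knockout against 351, 356, 378, 377 and 376 CPM in wild type (log2 fold change 0.80, SE 0.06, edgeR adjusted p = 7.22e-11). The Notch ligand gene dlc averaged 52.5 ± 3.87 CPM in aldh3a1 knockout larvae and 33.5 ± 2.53 CPM in wild type larvae (SD, n = 5 each), and the proneural factor neurod4 117 ± 13.7 CPM in aldh3a1 knockout larvae and 71.1 ± 3.87 CPM in wild type larvae. The stem cell factors sox2 and sox3 rose by 0.46 and 0.50 on the log2 scale.

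Genes that mark neurons in general rose in 27 and fell in 15 of 54 tested members, with a median of 0.16. gng3, a G protein subunit of neurons, was at 328, 306, 371, 348 and 381 CPM in the knockout against 180.2, 201, 213, 203 and 205 CPM in wild type (log2 fold change 0.79, SE 0.06, edgeR adjusted p = 4.16e-10). The growth cone protein gene gap43 rose by 0.80 (SE 0.07) and nrgn, which encodes neurogranin, by 0.90 (SE 0.07). The vesicle calcium sensor gene syt1 rose by 0.43, while elavl3, an RNA-binding protein of early neurons, fell to 214 CPM in the knockout against 305 CPM in wild type (log2 fold change -0.51, SE 0.07, edgeR adjusted p = 8.62e-07). Among genes for making and moving transmitters, 9 rose and 13 fell of 35 tested. Their summed level was nevertheless 2294 to 2352 CPM in the aldh3a1 knockout libraries, against 1845 to 2184 CPM in those of wild type. The vesicular transporter of inhibitory neurons, slc32a1, rose to 319.5 CPM in the knockout against 198 CPM in wild type (log2 fold change 0.69, SE 0.08). The serotonin transporter gene slc6a4 fell to 2.63 CPM in the knockout against 6.84 CPM in wild type (-1.37, SE 0.14). dbh, which makes noradrenaline, fell to 0.58 CPM in the knockout against 2.14 CPM in wild type (-1.88, SE 0.21). The dopamine synthesis gene th did not pass (log2 fold change 0.08, SE 0.15, edgeR adjusted p = 0.665).

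Paired copies of one transmitter gene could move apart. Of the glutamate decarboxylase copies, gad1 (ENSDARG00000027419) was at 388, 397, 353, 403 and 425 CPM in the knockout against 246, 256, 283, 274 and 301 CPM in wild type (log2 fold change 0.53, SE 0.07, edgeR adjusted p = 3.67e-07). The copy gad1 (ENSDARG00000093411) was at 1.7, 2.44, 1.92, 1.28 and 1.83 CPM in the knockout against 6.83, 5.09, 5.55, 4.45 and 4.56 CPM in wild type (log2 fold change -1.53, SE 0.20, edgeR adjusted p = 5.48e-07). The abundant copy was thus higher and the rare copy lower, each without overlap between the genotypes, as in 43.1% of all genes tested. The vesicular glutamate transporter followed the same order, with slc17a6 (ENSDARG00000041150) at 137 CPM in the knockout against 105 CPM in wild type (0.39, SE 0.07). slc17a6 (ENSDARG00000001127) fell to 12.1 CPM in the knockout against 40.8 CPM in wild type (-1.75, SE 0.21). The order was the other way for the ribonucleotide reductase gene rrm2, whose rarer ID, ENSDARG00000020711, rose by 1.84 (SE 0.20) and whose more abundant ID, ENSDARG00000078069, rose by 0.85 (SE 0.13). The synaptic fusion protein snap25 (ENSDARG00000058117), the rarer of its pair, rose by 0.67 (SE 0.06).

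**Figure D3:**
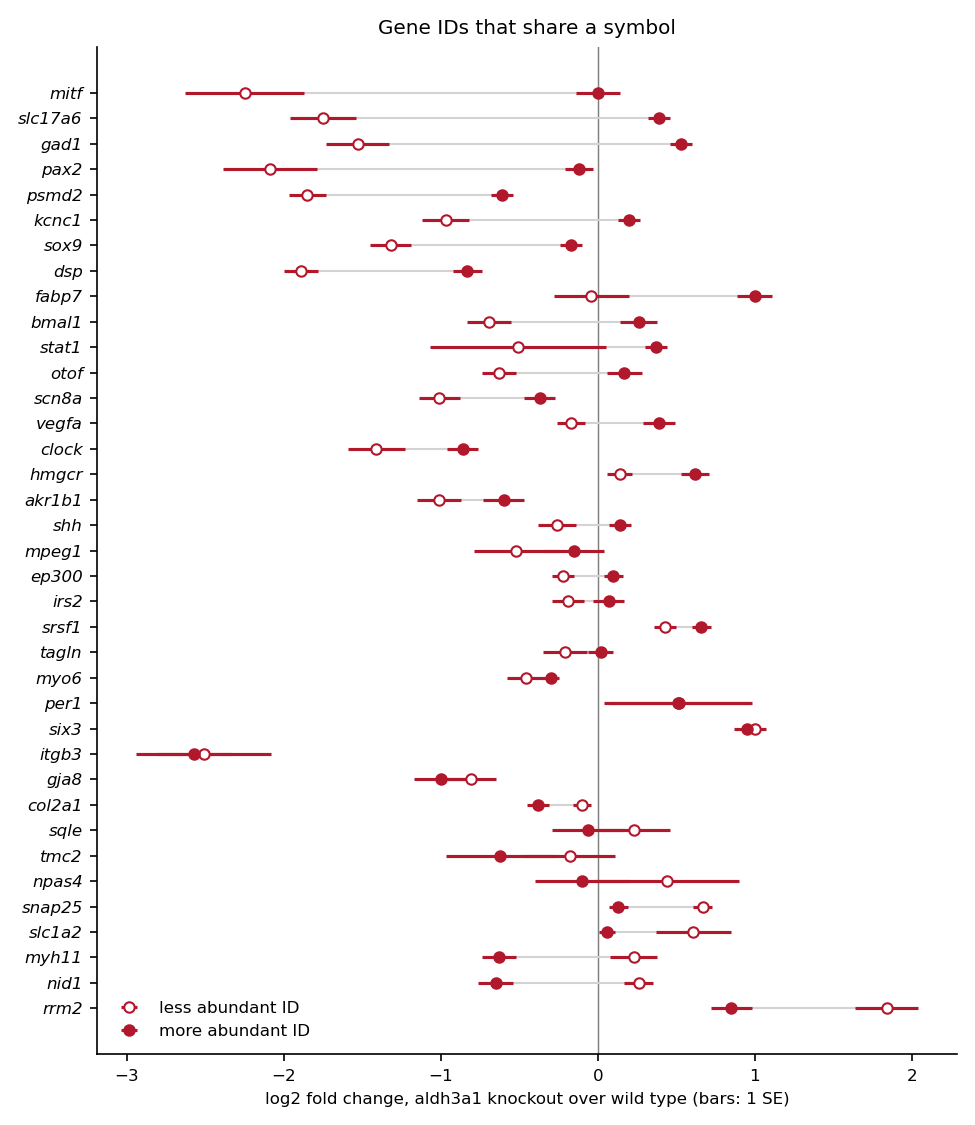
Log2 fold change of the aldh3a1 knockout over wild type (points, with bars of 1 SE) for 37 symbols that are carried by 2 named gene IDs, the less abundant ID in open and the more abundant in filled symbols by mean CPM in the other 10 libraries. The less abundant ID lies lower in 24 of the 37 pairs, among them pax2, with -2.09 for ENSDARG00000032578 and -0.12 for ENSDARG00000028148.

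Neuropeptide and pituitary hormone genes rose in 25 of 49 tested members and fell in 4 (median 0.33). The appetite peptide gene npy was at 12.2, 13.4, 11.4, 14.5 and 15.3 CPM in the knockout against 6.61, 6.07, 6.59, 8.06 and 6.29 CPM in wild type (log2 fold change 0.99, SE 0.12, edgeR adjusted p = 1.17e-07). Peptide YY (pyya) rose by 0.76, and crh, which starts the stress axis in the hypothalamus, rose by 0.74 (SE 0.10). Growth hormone (gh1) was at 2.49, 2.69, 4.75, 2.86 and 1.41 CPM in the knockout against 0.94, 0.926, 0.811, 0.572 and 0.669 CPM in wild type, an increase at a very low level (log2 fold change 1.86, SE 0.32, edgeR adjusted p = 1.99e-05). The summed level of the list was 1632 to 1708 CPM in the aldh3a1 knockout libraries, against 1425 to 1559 CPM in those of wild type, so the ranges did not overlap.

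By count of members, glial and axonal genes leaned the other way. Of astroglia genes, 17 of 32 fell and 8 rose, with a median of -0.17. Of myelinating glia genes, 17 of 33 fell and 8 rose, with a median of -0.33. The summed levels of both lists overlapped between the genotypes. Astroglia genes summed to 4345 to 4906 CPM in the aldh3a1 knockout libraries, against 4118 to 4657 CPM in those of wild type. Myelinating glia genes summed to 2681 to 2931 CPM in the aldh3a1 knockout libraries, against 2630 to 2765 CPM in those of wild type. Periaxin, prx, which Schwann cells need for stable myelin, was at 24.3, 24.4, 15.4, 16.2 and 17.4 CPM in the knockout against 95.6, 95.4, 89.7, 90.4 and 67.6 CPM in wild type (log2 fold change -2.17, SE 0.13, edgeR adjusted p = 1.44e-10). Myelin-associated glycoprotein, mag, was at 7.05, 7.97, 6.43, 5.57 and 6.06 CPM in the knockout against 26.7, 26.2, 26.2, 21.3 and 21.5 CPM in wild type (log2 fold change -1.88, SE 0.11, edgeR adjusted p = 9.54e-12). For both genes the gap between the genotypes was wider than either genotype's own range. The structural myelin genes moved less, with mbpa at 38.2 CPM in the knockout against 53.8 CPM in wild type (-0.50, SE 0.08). mpz fell to 9.56 CPM in the knockout against 15.4 CPM in wild type (-0.69, SE 0.10). Neurocan, a proteoglycan of brain matrix, fell in both copies, ncan (-2.37, SE 0.21) and ncana (-2.57, SE 0.25). The GABA transporter of astroglia slc6a11 fell to 19.2 CPM in the knockout against 70.4 CPM in wild type (-1.87, SE 0.17). gfap, the astroglial filament gene, fell to 183 CPM in the knockout against 239.7 CPM in wild type (-0.39, SE 0.07). The radial glia lipid carrier fabp7 (ENSDARG00000007697) went against this, at 646, 629, 805, 583 and 693 CPM in the knockout against 290.0, 354, 411, 332 and 292 CPM in wild type (log2 fold change 1.0, SE 0.11, edgeR adjusted p = 1.78e-07).

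Axon guidance and adhesion genes fell in 53 and rose in 22 of 108 tested members (median -0.19), and 28 fell at least 2-fold. Their summed level overlapped, at 4100.0 to 4805.3 CPM in the aldh3a1 knockout libraries, against 4416.2 to 4985.5 CPM in those of wild type. The ephrin receptor gene epha4b was at 5.06, 6.68, 6.43, 3.44 and 3.39 CPM in the knockout against 22.8, 23.3, 23.3, 20.1 and 21.2 CPM in wild type (log2 fold change -2.14, SE 0.17, edgeR adjusted p = 1.42e-09). The semaphorin sema3b fell by 1.57 (SE 0.11), and the netrin receptor gene dcc by 1.45 (SE 0.19). The presynaptic adhesion gene nrxn1a rose by 0.48, and robo1, a receptor of Slit proteins, was at 102 CPM in the knockout against 94.4 CPM in wild type (edgeR adjusted p = 0.161). Voltage-gated channel genes of neurons fell in 45 of 73 tested members and rose in 12, with a median of -0.56. Their summed level overlapped as well, at 948.5 to 1208.3 CPM in the aldh3a1 knockout libraries, against 1144.5 to 1312.2 CPM in those of wild type. cacna2d1a, an accessory calcium channel subunit, fell to 5.2 CPM in the knockout against 18.3 CPM in wild type (-1.81, SE 0.12). The sodium channel gene scn1lab fell to 32.4 CPM in the knockout against 44.5 CPM in wild type (-0.46, SE 0.11). Skeletal muscle also expresses some channels of this list, and the muscle genes fell in the same libraries. The part of muscle in the channel values was not tested.

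Retinal genes rose more often than they fell. Inner retina, Müller glia and pigment epithelium genes rose in 34 of 59 tested members (57.6%) and fell in 4, with a median of 0.40, and 9 rose at least 2-fold. The bipolar cell factor vsx1 was at 146, 138, 206, 170.1 and 149 CPM in the knockout against 63.1, 77, 70.5, 69 and 80.6 CPM in wild type (log2 fold change 1.17, SE 0.11, edgeR adjusted p = 2.39e-08). gng13, a G protein subunit of ON bipolar cells, was at 159, 151, 209, 189 and 193 CPM in the knockout against 77.6, 90.8, 95, 85 and 79.7 CPM in wild type (log2 fold change 1.07, SE 0.08, edgeR adjusted p = 3.28e-10). The eye field factor six3 rose in both copies, six3 (ENSDARG00000058008) to 94.6 CPM in the knockout against 47.4 CPM in wild type (1.0, SE 0.07). six3 (ENSDARG00000054879) rose to 104 CPM in the knockout against 53.9 CPM in wild type (0.95, SE 0.08). trpm1b, the melastatin channel known from bipolar cells and melanophores, rose to 112 CPM in the knockout against 56.5 CPM in wild type (0.99, SE 0.08). rlbp1a, a retinoid carrier of Müller glia, rose to 91 CPM in the knockout against 51.1 CPM in wild type (0.83, SE 0.06). The retinoid isomerase of the pigment epithelium, rpe65 (ENSDARG00000007480), was at 129 CPM in the knockout against 110.2 CPM in wild type (edgeR adjusted p = 0.347). The summed level of the list was 3264 to 3629 CPM in the aldh3a1 knockout libraries, against 2154 to 2505 CPM in those of wild type.

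Rod and cone genes rose in 42 of 69 tested members and fell in 6 (median 0.34). The photoreceptor identity factor crx (ENSDARG00000011989) was at 166, 158, 214, 199.5 and 179.9 CPM in the knockout against 89.9, 97.9, 104, 94 and 102 CPM in wild type (log2 fold change 0.91, SE 0.08, edgeR adjusted p = 1.57e-09). The cone transducin subunit gngt2 (ENSDARG00000103543) was at 1544, 1972, 1719, 2065 and 1688 CPM in the knockout against 829, 904, 980.4, 904 and 976 CPM in wild type (log2 fold change 0.97, SE 0.07, edgeR adjusted p = 1.79e-10). The disc protein gene prph2 (ENSDARG00000038018) rose by 0.66 (SE 0.07). The visual pigment of rods moved less: rhodopsin, rho (ENSDARG00000002193), was at 3453 CPM in the knockout against 2722 CPM in wild type (0.34, SE 0.08). Lens genes did not share the increase, with 3 higher and 14 lower of 43 tested (8 lower without wild type replicate 2, and 5 higher and 9 lower without wild type replicate 3). The crystallin gene crybb1 was at 826 CPM in the knockout against 812 CPM in wild type (edgeR adjusted p = 0.911).

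The lists of inner ear and lateral line hair cells and of epidermis and periderm were mixed. Hair cell genes rose in 12 and fell in 12 of 52 tested members, shares below those over all genes. Epidermal and periderm genes rose in 17 and fell in 26 of 75, a balance that became 24 higher and 23 lower without wild type replicate 5. The keratin gene cyt1 was at 2709.9, 2977, 2479, 3234 and 3222 CPM in the knockout against 1448, 1302, 1400.0, 1767 and 1524 CPM in wild type (log2 fold change 0.97, SE 0.09, edgeR adjusted p = 2.48e-09). Desmoplakin, which ties keratin to desmosomes, fell in both copies, dsp (ENSDARG00000076673) to 9.24 CPM in the knockout against 34.4 CPM in wild type (-1.89, SE 0.11). dsp (ENSDARG00000022309) fell to 29 CPM in the knockout against 51.5 CPM in wild type (-0.83, SE 0.09). The transglutaminase gene tgm1l1 fell by 1.12 (SE 0.11). The abundant periderm keratin krt4 rose slightly, to 15099 CPM in the knockout against 12785 CPM in wild type (0.24, SE 0.06). krt5 was at 3995 CPM in the knockout against 3857 CPM in wild type (edgeR adjusted p = 0.652).

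**Figure D4:**
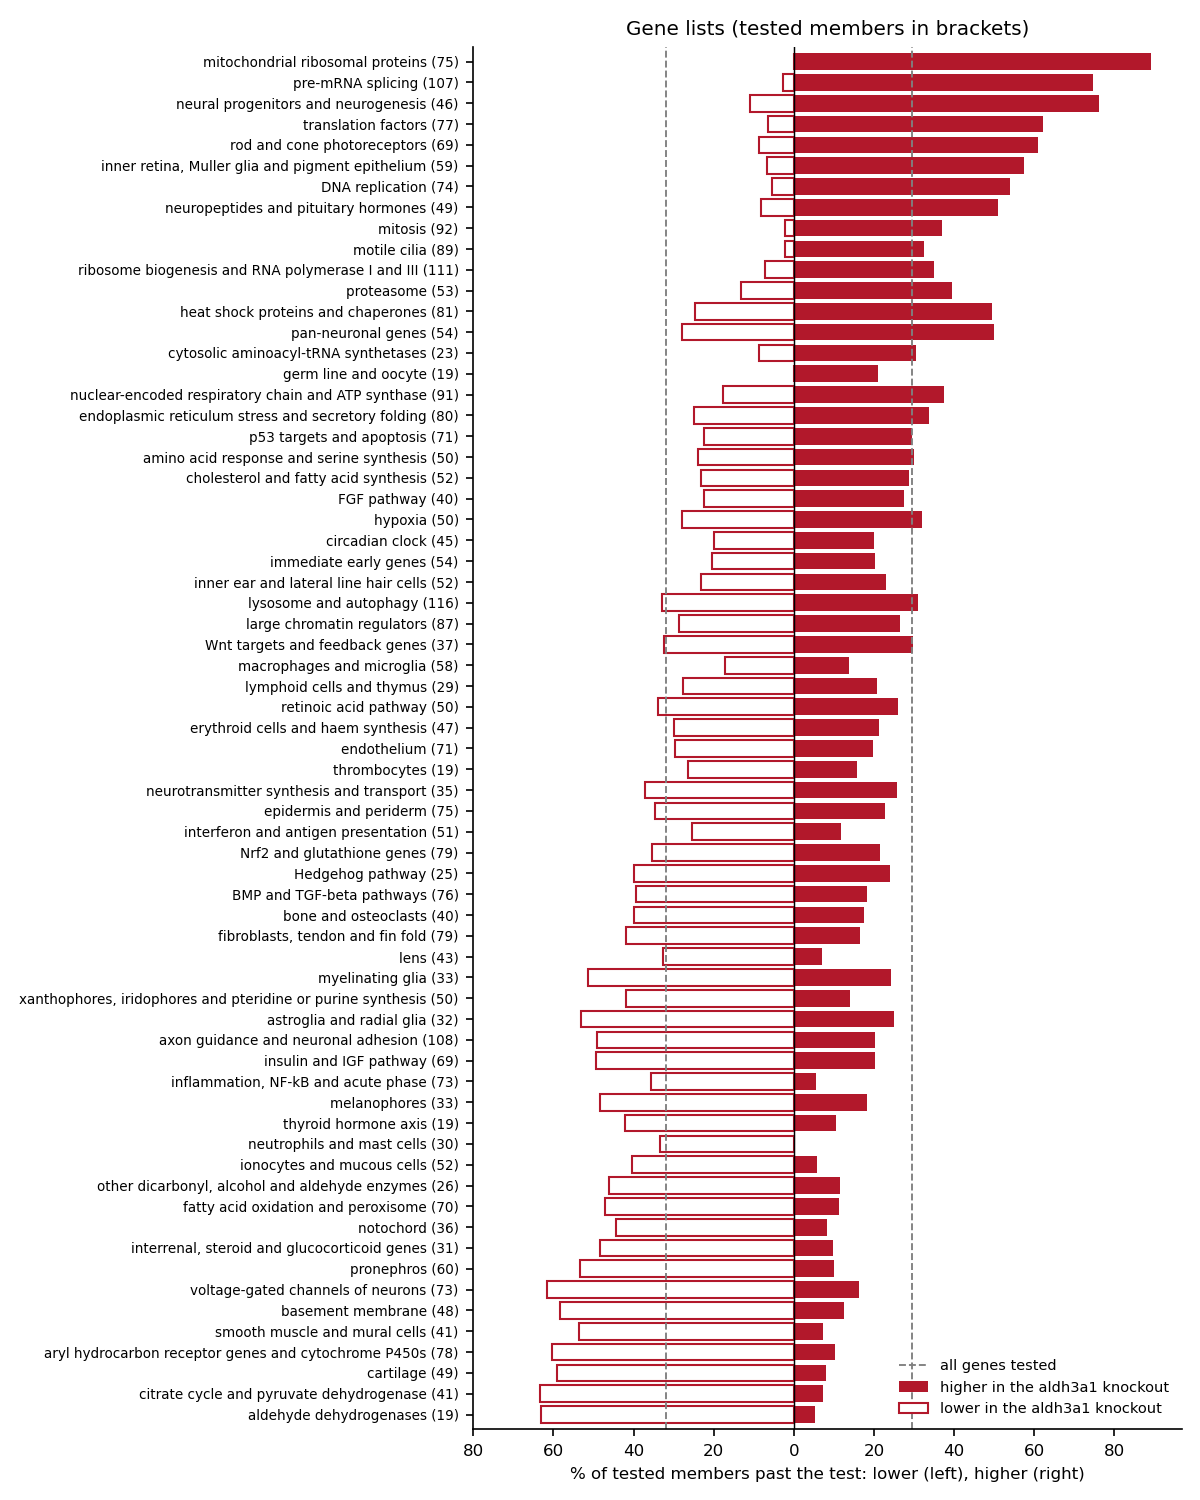
Percent of the tested members of 66 gene lists that passed the edgeR test as higher (right, filled) or lower (left, open) in the aldh3a1 knockout than in wild type. Dashed lines mark the shares over all 22234 genes tested, 29.4% higher and 32.0% lower. Mitochondrial ribosomal proteins (89.3%) and neural progenitors (76.1%) reach farthest to the right, and citrate cycle (63.4%) and aldehyde dehydrogenase genes (63.2%) farthest to the left.

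Genes of growth and RNA processing rose more often than they fell, by small steps. Abundant genes of any kind were also called higher more often, with 37.1% at 10 to 30 CPM and 57.1% at 100 to 300 CPM. The part of level in these lists was not tested. Pre-mRNA splicing genes rose in 80 of 107 tested members (74.8%) and fell in 3, with a median of 0.38. The export adaptor alyref was at 298, 282, 312, 311 and 299 CPM in the knockout against 168, 189, 189, 183 and 172 CPM in wild type (log2 fold change 0.74, SE 0.05, edgeR adjusted p = 7.35e-11). The core spliceosome gene snrpb rose by 0.73 (SE 0.05) and the splicing factor gene sf3b1 by 0.45 (SE 0.07). Mitochondrial ribosomal protein genes rose in 67 of 75 (89.3%) and fell in 0 by edgeR (0 also with DESeq2, with limma-voom and at an unadjusted p below 0.05, which 64.9% of all genes reached), with log2 fold changes from -0.03 to 0.74. mrps21, a small subunit protein gene, was at 20.4, 23.6, 23.3, 24.3 and 22.4 CPM in the knockout against 14.7, 13.1, 15.7, 12.6 and 12.2 CPM in wild type (log2 fold change 0.74, SE 0.08, edgeR adjusted p = 2.19e-08). Translation factors rose in 48 of 77 and ribosome biogenesis genes in 39 of 111, with 5 and 8 falling (5 of the ribosome biogenesis genes without aldh3a1 knockout replicate 5). The initiation factor gene eif2s1 (ENSDARG00000005827) rose by 0.72 (SE 0.06), while the nucleolar genes fbl and ncl were at 88.9 CPM in the knockout against 84.3 CPM in wild type and 428 CPM in the knockout against 427 CPM in wild type (edgeR adjusted p = 0.477 and 0.988).

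DNA replication genes rose in 40 of 74 tested members and fell in 4 (median 0.23; 2 fell without aldh3a1 knockout replicate 4 or 5), and mitosis genes rose in 34 of 92 and fell in 2 (median 0.13; 4 fell without aldh3a1 knockout replicate 1 or 3). The ribonucleotide reductase gene rrm2 (ENSDARG00000078069) was at 127, 113, 176, 148 and 125 CPM in the knockout against 94.5, 62.4, 84.4, 70.5 and 71.4 CPM in wild type (log2 fold change 0.85, SE 0.13, edgeR adjusted p = 1.15e-05). The replication inhibitor geminin, gmnn, rose by 0.64 (SE 0.08), the clamp gene pcna by 0.32 (SE 0.07) and the mitotic cyclin ccnb1 by 0.47 (SE 0.09). The proliferation marker mki67 did not pass, at 147 CPM in the knockout against 142 CPM in wild type (edgeR adjusted p = 0.579). Motile cilia genes rose in 29 of 89 (32.6%) and fell in 2 (2.25%), with a median of 0.29. The share that rose was near the 29.4% over all genes, and the share that fell was below the 32.0% over all genes. Among the rises was cfap126, at 5.41 CPM in the knockout against 2.57 CPM in wild type (1.07, SE 0.14). The ciliary master factor foxj1 rose to 7.27 CPM in the knockout against 5.58 CPM in wild type (0.38, SE 0.11). The related factor rfx3 fell to 6.81 CPM in the knockout against 14.6 CPM in wild type (-1.1, SE 0.11).

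Energy metabolism was divided. Citrate cycle and pyruvate dehydrogenase genes fell in 26 of 41 tested members and rose in 3 (median -0.28), and genes of fatty acid oxidation and peroxisomes fell in 33 of 70 and rose in 8 (median -0.20; 4 rose without wild type replicate 1 and 5 without wild type replicate 4). The kinases that switch off pyruvate dehydrogenase fell, pdk4 to 5.5 CPM in the knockout against 14.4 CPM in wild type (-1.39, SE 0.13). pdk1 fell to 6.32 CPM in the knockout against 12.6 CPM in wild type (-0.99, SE 0.11). Glutamate dehydrogenase (glud1b) fell to 281 CPM in the knockout against 484 CPM in wild type (-0.79, SE 0.09), while citrate synthase (cs) was at 298 CPM in the knockout against 293 CPM in wild type (edgeR adjusted p = 0.689). The lipid regulator ppara fell to 0.553 CPM in the knockout against 2.17 CPM in wild type (-1.96, SE 0.25). acadvl, the first enzyme of long-chain oxidation in mitochondria, fell to 97.7 CPM in the knockout against 141 CPM in wild type (-0.53, SE 0.06). Respiratory chain genes rose in 34 and fell in 16 of 91 (median 0.07), whereas total-count scaling gave 22 higher and 34 lower (median -0.03). Among them atp5mea rose by 0.74 (SE 0.07) and atp5f1b, the catalytic subunit of ATP synthase, fell by 0.38 (SE 0.06). Muscle and liver are rich in these enzymes and their marker genes fell in the same libraries, with the part of tissue composition not tested.

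Matrix and skeletal genes fell more often than they rose. The summed levels of the cartilage and notochord lists were lower in the knockout, without overlap between the genotypes. Those of the basement membrane, bone and fibroblast lists overlapped. Basement membrane genes summed to 1827.5 to 2059.7 CPM in the aldh3a1 knockout libraries, against 1957.6 to 2359.4 CPM in those of wild type. Cartilage genes fell in 29 of 49 tested members and rose in 4 (median -0.39; 2 rose without aldh3a1 knockout replicate 3), basement membrane genes fell in 28 of 48 and rose in 6 (median -0.36), and notochord genes fell in 16 of 36 and rose in 3 (median -0.22). The basement membrane gene frem3 was at 3.51, 2.08, 2.31, 2.07 and 2.76 CPM in the knockout against 17.9, 17.9, 17, 17.8 and 10 CPM in wild type (log2 fold change -2.66, SE 0.20, edgeR adjusted p = 5.41e-10). The laminin chain gene lamc1 was at 35, 32.2, 31.1, 25.2 and 32.4 CPM in the knockout against 80.3, 91.3, 82.6, 71.2 and 64.8 CPM in wild type (log2 fold change -1.32, SE 0.10, edgeR adjusted p = 1.42e-09). The laminin gene lamb2 fell by 1.26 (SE 0.10) and lama1 by 0.57 (SE 0.12). Among notochord genes, cavin1 (ENSDARG00000059362), which builds caveolae, fell to 3.41 CPM in the knockout against 18 CPM in wild type (-2.4, SE 0.14).

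Within cartilage, the mineralisation inhibitor gene ucma was at 5.32, 4.71, 2.97, 3.06 and 4.83 CPM in the knockout against 17.1, 15, 14.6, 15.4 and 12.3 CPM in wild type (log2 fold change -1.83, SE 0.16, edgeR adjusted p = 1.91e-09). The aggrecan gene acanb, which encodes the main cartilage proteoglycan, fell to 0.173 CPM in the knockout against 2.51 CPM in wild type (-3.84, SE 0.38). The collagen col9a1b fell to 199 CPM in the knockout against 395 CPM in wild type (-0.99, SE 0.10). col2a1 (ENSDARG00000069093) fell to 1122 CPM in the knockout against 1459 CPM in wild type (-0.38, SE 0.07). Its other ID, col2a1 (ENSDARG00000011407), did not pass, at 318 CPM in the knockout against 341 CPM in wild type (edgeR adjusted p = 0.166). The cartilage factor sox9 (ENSDARG00000003293) fell to 7.46 CPM in the knockout against 18.7 CPM in wild type (-1.32, SE 0.13). The more abundant sox9 (ENSDARG00000043923) fell less, to 39.5 CPM in the knockout against 44.5 CPM in wild type (-0.17, SE 0.07), with overlap between the genotypes. Bone and osteoclast genes fell in 16 and rose in 7 of 40. The phosphate regulator phex of bone cells fell to 12.9 CPM in the knockout against 21.2 CPM in wild type (-0.72, SE 0.09). The vitamin D receptor vdr (ENSDARG00000070721) fell to 1.45 CPM in the knockout against 5.66 CPM in wild type (-1.96, SE 0.19). Fibroblast, tendon and fin fold genes fell in 33 and rose in 13 of 79, with the tendon gene tnmd at 33.6 CPM in the knockout against 52.6 CPM in wild type (-0.65, SE 0.07). The fin fold gene and1 rose to 59.5 CPM in the knockout against 36.9 CPM in wild type (0.69, SE 0.13).

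In each of the kidney, ionocyte and pigment cell lists, more members fell than rose. The summed levels of the pronephros and ionocyte lists were lower in the knockout, without overlap between the genotypes. Melanophore genes overlapped in sum, at 1130 to 1356 CPM in the aldh3a1 knockout libraries, against 1154 to 1289 CPM in those of wild type. Pronephros genes fell in 32 of 60 tested members and rose in 6 (median -0.54; 3 rose without aldh3a1 knockout replicate 3 or wild type replicate 5). The tubule cadherin cdh17 was at 28.2, 34.2, 20.5, 38.9 and 33 CPM in the knockout against 72, 73.1, 47.1, 65.7 and 56.8 CPM in wild type (log2 fold change -1.02, SE 0.15, edgeR adjusted p = 1.45e-05). The phosphate carrier gene slc34a2b fell by 1.17 (SE 0.17). The podocyte gene nphs1 was at 1.98 CPM in the knockout against 1.82 CPM in wild type (edgeR adjusted p = 0.546). Part of the transporters on the list also serve the gut, and gut genes fell in the same libraries, 327 to 771 CPM in the aldh3a1 knockout libraries, against 1114 to 2191 CPM in those of wild type in sum. Ionocyte and mucous cell genes fell in 21 and rose in 3 of 52, with a median of -0.40. The ammonia channel gene rhag fell to 44.8 CPM in the knockout against 86.7 CPM in wild type (-0.95, SE 0.10). The ionocyte factor foxi3b and the mucous cell gene agr2 were at 5.03 CPM in the knockout against 5.01 CPM in wild type and 21.8 CPM in the knockout against 23.9 CPM in wild type (edgeR adjusted p = 0.989 and 0.389). Melanophore genes fell in 16 and rose in 6 of 33. The pigment enzyme gene tyr was at 9.37, 7.83, 8.08, 4.26 and 5.67 CPM in the knockout against 23.7, 23.8, 20, 17.9 and 17.5 CPM in wild type (log2 fold change -1.54, SE 0.18, edgeR adjusted p = 3.55e-07). The melanosome gene pmela was at 236 CPM in the knockout against 250.3 CPM in wild type (edgeR adjusted p = 0.239).

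Vessel genes belong to the cells in which the reporter of the line is active, and a smaller share of them passed the test than of all genes. Endothelial genes rose in 14 and fell in 21 of 71 tested members (median -0.07, and 9 rose with total-count scaling). Both shares were below those over all genes. Their summed level was 1295 to 1396 CPM in the aldh3a1 knockout libraries, against 1188 to 1271 CPM in those of wild type, without overlap. The gap between these ranges was narrow, and sums without the TMM factors were not computed. fli1 ranged over 29.0 to 42.3 CPM in the knockout against 30.3 to 40.8 CPM in wild type (log2 fold change -0.06, SE 0.09, edgeR adjusted p = 0.565). The genotypes overlapped. The vessel receptor kdrl was at 13.7, 15.4, 14.9, 12 and 13.1 CPM in the knockout against 16.8, 14.2, 15.6, 14.7 and 14.5 CPM in wild type (log2 fold change -0.14, SE 0.08, edgeR adjusted p = 0.14), with overlap as well. The endothelial cadherin cdh5 had a log2 fold change of 0.25 (SE 0.07; 0.15, edgeR adjusted p = 0.0913 with total-count scaling), and the blood and vessel factor tal1 rose to 53 CPM in the knockout against 35.6 CPM in wild type (0.57, SE 0.06). The tight junction gene cldn5 (ENSDARG00000043716) fell to 6.45 CPM in the knockout against 12.2 CPM in wild type (-0.92, SE 0.10). The monocarboxylate carrier gene slc16a1 (ENSDARG00000068572) fell to 5.98 CPM in the knockout against 14.6 CPM in wild type (-1.28, SE 0.14). Smooth muscle and mural cell genes fell in 22 and rose in 3 of 41, with acta2 at 50 CPM in the knockout against 69.1 CPM in wild type (-0.47, SE 0.12). The filament gene synm fell to 10.6 CPM in the knockout against 23.4 CPM in wild type (-1.14, SE 0.09).

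In the lists of blood and immune cells, a smaller share of members passed than the 61.3% over all genes. Erythroid and haem genes rose in 10 and fell in 14 of 47 tested members. The transferrin receptor gene tfr1a, which brings iron to erythroid cells, fell to 1.78 CPM in the knockout against 8.54 CPM in wild type (-2.26, SE 0.20). The red cell spectrin gene sptb fell to 14.7 CPM in the knockout against 40 CPM in wild type (-1.44, SE 0.12). The carbonic anhydrase gene cahz rose to 80.1 CPM in the knockout against 52.9 CPM in wild type (0.60, SE 0.05). Macrophage and microglia genes rose in 8 and fell in 10 of 58. The macrophage pore gene mpeg1 (ENSDARG00000055290) was at 2.44 CPM in the knockout against 2.72 CPM in wild type (edgeR adjusted p = 0.482). The macrophage receptor gene csf1ra fell to 1.21 CPM in the knockout against 3.3 CPM in wild type (-1.44, SE 0.23). Neutrophil and mast cell genes rose in 0 and fell in 10 of 30 by edgeR (0 rose also at an unadjusted p below 0.05, with DESeq2 and with limma-voom), with 1 or 2 higher when aldh3a1 knockout replicate 2 or 3 or wild type replicate 5 was left out. The granule gene npsn fell to 7.87 CPM in the knockout against 10 CPM in wild type (-0.35, SE 0.10). lyz was at 1.8 CPM in the knockout against 1.67 CPM in wild type (edgeR adjusted p = 0.60).

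Of the inflammation genes, 26 of 73 fell and 4 rose (2 without aldh3a1 knockout replicate 5 or wild type replicate 2, 8 without wild type replicate 5). The share that fell, 35.6%, was near the 32.0% over all genes. The share that rose, 5.48%, was below the 29.4% over all genes. The NF-kB subunit gene rela was at 0.821, 0.786, 0.742, 0.845 and 0.39 CPM in the knockout against 3.45, 2.67, 2.83, 2.86 and 2.65 CPM in wild type (log2 fold change -2.0, SE 0.21, edgeR adjusted p = 1.60e-08). The cytokine signal carrier stat3 was at 4.81, 4.83, 3.68, 3.44 and 4.32 CPM in the knockout against 12.2, 13.4, 9.71, 11.4 and 13.1 CPM in wild type (log2 fold change -1.5, SE 0.18, edgeR adjusted p = 1.58e-07). Both were lower in every knockout library than in any wild type library, as were 23.1% of all genes tested. The cytokine gene il1b was at 0.614 CPM in the knockout against 0.741 CPM in wild type (edgeR adjusted p = 0.637). Interferon and antigen presentation genes rose in 6 and fell in 13 of 51 tested members of 76 IDs (median -0.23). Both shares, 11.8% and 25.5%, were below those over all genes. The peptide-loading gene tapbpl rose to 42.4 CPM in the knockout against 19.7 CPM in wild type (1.1, SE 0.12). The interferon regulator irf7 rose to 5.41 CPM in the knockout against 3.16 CPM in wild type (0.77, SE 0.17). These rises went against the balance of the list. Its member rsad2, at a very low level, did not pass, at 0.239 CPM in the knockout against 0.349 CPM in wild type (edgeR adjusted p = 0.268). Germ line and oocyte genes were near the detection limit, with 19 of 44 IDs tested, and ddx4, a germ cell helicase, was at 0.322 CPM in the knockout against 0.447 CPM in wild type.

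Most tested members of the family to which the knocked-out gene belongs were lower. Of 19 tested aldehyde dehydrogenase genes, 12 fell (63.2%) and 1 rose (0 without aldh3a1 knockout replicate 3 or 4 or wild type replicate 1 or 4), with a median of -0.41. None of the 19 carried the symbol aldh3a1. Liver genes fell in the same libraries, and the part of liver in the values of this family was not tested. The proline catabolism gene aldh4a1 was at 14.2, 15.6, 11.3, 13.3 and 12.9 CPM in the knockout against 36.6, 32.7, 32.5, 30.8 and 30.8 CPM in wild type (log2 fold change -1.28, SE 0.09, edgeR adjusted p = 1.44e-10). The fatty aldehyde dehydrogenase gene aldh3a2b, of the same subfamily as the knocked-out gene, was at 1.64, 1.91, 1.57, 1.84 and 1.32 CPM in the knockout against 5.0, 5.32, 4.29, 3.2 and 4.04 CPM in wild type (log2 fold change -1.4, SE 0.19, edgeR adjusted p = 1.12e-06). Its copy aldh3a2a was at 10.9 CPM in the knockout against 10.5 CPM in wild type and the subfamily gene aldh3b1 at 12 CPM in the knockout against 9.91 CPM in wild type, neither passing (edgeR adjusted p = 0.706 and 0.084). Without wild type replicate 5, aldh3b1 passed as higher (0.46, edgeR adjusted p = 0.000597). The lysine catabolism gene aldh7a1 fell to 101 CPM in the knockout against 139.6 CPM in wild type (-0.46, SE 0.06). aldh1a2, which makes retinoic acid in the embryo, fell to 30.4 CPM in the knockout against 42.8 CPM in wild type (-0.49, SE 0.07).

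Other detoxification genes fell more often than they rose. Of the remaining dicarbonyl, alcohol and aldehyde enzymes, 12 of 26 fell and 3 rose (1 without wild type replicate 5). The amine oxidase genes aoc1 and aoc3 fell to 3.2 CPM in the knockout against 18.8 CPM in wild type (-2.56, SE 0.35) and 26.7 CPM in the knockout against 49.2 CPM in wild type (-0.88, SE 0.13). The aldose reductase gene akr1b1 (ENSDARG00000045598) fell to 3.78 CPM in the knockout against 7.63 CPM in wild type (-1.01, SE 0.14). fn3krp, which removes early sugar adducts from proteins, fell to 1.59 CPM in the knockout against 3.34 CPM in wild type (-1.07, SE 0.16). Glyoxalase 2 (hagh), the partner of glo1, was at 29.7 CPM in the knockout against 27.7 CPM in wild type (edgeR adjusted p = 0.269). Aryl hydrocarbon receptor and cytochrome P450 genes fell in 47 of 78 tested members (60.3%) and rose in 8 (5 without wild type replicate 1, 4 or 5), with a median of -0.80. cyp1a1, the best known target of the receptor, was at 2.91, 2.95, 2.01, 2.86 and 3.69 CPM in the knockout against 11.2, 12.3, 8.24, 9.15 and 8.55 CPM in wild type (log2 fold change -1.78, SE 0.17, edgeR adjusted p = 5.71e-09). The receptor gene ahr2 fell to 28.8 CPM in the knockout against 38.6 CPM in wild type (-0.43, SE 0.07). Its partner arnt fell to 2.34 CPM in the knockout against 7.23 CPM in wild type (-1.62, SE 0.18). cyp1b1 was at 2.69 CPM in the knockout against 2.67 CPM in wild type (edgeR adjusted p = 0.948). Many P450 genes are expressed in liver and gut, whose genes fell in the same libraries, and their part was not tested.

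Stress programmes did not move as one. Nrf2 and glutathione genes rose in 17 and fell in 28 of 79 tested members (median -0.13). The Nrf2 target hmox1 was at 2.27 CPM in the knockout against 2.14 CPM in wild type (edgeR adjusted p = 0.81), the glutathione synthesis gene gclm rose to 13.8 CPM in the knockout against 11 CPM in wild type (0.33, SE 0.09), and catalase (cat) fell to 42.8 CPM in the knockout against 71.3 CPM in wild type (-0.74, SE 0.08). Chaperone genes rose in 40 and fell in 20 of 81, among them the folding chamber gene cct2 (ENSDARG00000104674), at 266 CPM in the knockout against 156 CPM in wild type (0.77, SE 0.05). bag2 fell to 0.771 CPM in the knockout against 4.78 CPM in wild type (-2.62, SE 0.26). The heat-inducible hsp70l was at 8.69 CPM in the knockout against 7.75 CPM in wild type (edgeR adjusted p = 0.795). Of the genes for endoplasmic reticulum stress, 27 rose and 20 fell of 80 (16 and 26 with total-count scaling, 23 and 24 with upper-quartile scaling), with xbp1 at 249 CPM in the knockout against 192 CPM in wild type (0.37, SE 0.07). ddit3 fell to 39.2 CPM in the knockout against 50.6 CPM in wild type (-0.37, SE 0.10). The p53 target cdkn1a was at 12.9 CPM in the knockout against 14 CPM in wild type (edgeR adjusted p = 0.664). Both copies of the amino acid response factor rose, atf4a to 342 CPM in the knockout against 241 CPM in wild type (0.51, SE 0.05). atf4b rose to 316 CPM in the knockout against 224 CPM in wild type (0.49, SE 0.05). Its target gene asns was at 26.3 CPM in the knockout against 24.3 CPM in wild type (edgeR adjusted p = 0.20). The amino acid carrier slc7a5 fell to 5.16 CPM in the knockout against 19 CPM in wild type (-1.88, SE 0.21).

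Proteasome genes rose in 21 and fell in 7 of 53 tested members, against 10 and 15 with total-count scaling. The factor that raises proteasome genes when the enzyme is inhibited in mammals, nfe2l1, was at 3.17, 2.69, 1.29, 1.72 and 2.16 CPM in the knockout against 13.2, 9.95, 9.86, 10.6 and 10.4 CPM in wild type (log2 fold change -2.29, SE 0.20, edgeR adjusted p = 1.57e-09). The regulatory particle gene psmd7 fell to 13.4 CPM in the knockout against 23.4 CPM in wild type (-0.81, SE 0.09). The catalytic subunit gene psmb5 rose to 125 CPM in the knockout against 106 CPM in wild type (0.23, SE 0.06; 0.13, edgeR adjusted p = 0.113 with total-count scaling). Lysosome and autophagy genes were split, with 36 higher and 38 lower of 116. The peptidase gene dpp7 was at 78.4, 72.4, 67, 86 and 74.3 CPM in the knockout against 28.7, 29.1, 32.8, 39.1 and 32 CPM in wild type (log2 fold change 1.23, SE 0.11, edgeR adjusted p = 4.90e-09). The autophagy kinase gene ulk1 fell by 1.12 (SE 0.11).

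Signalling and clock genes completed the survey. Of insulin and IGF pathway genes, 34 of 69 fell and 14 rose. The factor foxo3b, which insulin holds out of the nucleus, fell to 76 CPM in the knockout against 136 CPM in wild type (-0.84, SE 0.08). The phosphatase gene pten (ENSDARG00000071018) rose to 250.4 CPM in the knockout against 182 CPM in wild type (0.46, SE 0.05), and the insulin receptor substrate copies irs2 (ENSDARG00000037099) and irs2 (ENSDARG00000075282) were at 34.1 CPM in the knockout against 38.9 CPM in wild type and 61.1 CPM in the knockout against 58.1 CPM in wild type (edgeR adjusted p = 0.0983 and 0.559). The Hedgehog receptor and target ptch1 fell to 15.7 CPM in the knockout against 31.5 CPM in wild type (-1.0, SE 0.11). The target gene gli1 was at 13.1 CPM in the knockout against 13 CPM in wild type (edgeR adjusted p = 0.984). The Wnt target axin2 and the FGF target dusp6 were at 64.8 CPM in the knockout against 60.1 CPM in wild type and 106 CPM in the knockout against 109.8 CPM in wild type (edgeR adjusted p = 0.108 and 0.446). Of the other pathways, BMP and TGF-beta genes rose in 14 and fell in 30 of 76 (median -0.10), Wnt genes rose in 11 and fell in 12 of 37 (6 rose with total-count scaling), Hedgehog genes rose in 6 and fell in 10 of 25 and FGF genes rose in 11 and fell in 9 of 40. The BMP target id1 rose to 76.1 CPM in the knockout against 51.5 CPM in wild type (0.56, SE 0.07), and the pathway inhibitor smad7 rose to 36.2 CPM in the knockout against 23 CPM in wild type (0.66, SE 0.08). The ligand gene bmp3 fell to 1.14 CPM in the knockout against 4.73 CPM in wild type (-2.05, SE 0.17). Clock genes rose in 9 and fell in 9 of 45 (15 higher without wild type replicate 2), with a median of 0.38. The spread within a genotype was wide: per1 (ENSDARG00000012499) averaged 176 ± 98 CPM in aldh3a1 knockout larvae and 123 ± 88.5 CPM in wild type larvae (SD, n = 5 each, edgeR adjusted p = 0.361). It was low in aldh3a1 knockout replicates 2 and 4 (66.5 and 73.0 CPM, others 226.8 to 270.3). In wild type it was low in replicates 1 and 4 (42.0 and 39.0 CPM, others 116.1 to 245.3). Another clock gene of the list was low in the same libraries. What these libraries share was not tested. The clock copies clock (ENSDARG00000003631) and clock (ENSDARG00000011703) fell to 18.4 CPM in the knockout against 33.5 CPM in wild type (-0.86, SE 0.10) and 3.59 CPM in the knockout against 9.53 CPM in wild type (-1.41, SE 0.18).

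Loss of aldh3a1 was also present in larvae that lacked glo1, as the double knockout against the glo1 knockout, and these 10 libraries shared none with the first comparison. Here 2521 genes (11.3%) passed, 1004 higher (4.52%) and 1517 lower (6.82%), and the number fell to 1302 without double knockout replicate 4, 1451 without double knockout replicate 5 and 1331 without glo1 knockout replicate 5. The direction was often kept: of 3040 genes at least 2-fold lower in the aldh3a1 knockout, 2688 (88.4%) were lower in the double knockout than in the glo1 knockout, 748 of them past the test. Of 512 genes at least 2-fold higher, 447 (87.3%) were higher there and 104 past the test. The size was smaller, with a median log2 fold change of -1.42 in the first comparison and -0.42 in the second for the lower genes, and 1.24 and 0.36 for the higher ones. These genes were chosen by the first comparison, which by itself makes their first median larger. In the other direction, 654 of 1004 higher genes (65.1%) and 1314 of 1517 lower genes (86.6%) of the double knockout comparison were called the same way in the aldh3a1 knockout. Across all 22234 genes the correlation of the log2 fold changes was 0.50, a description over genes fitted in one model. The direct test of the difference, the effect of aldh3a1 loss without glo1 minus that with glo1, called 7905 genes (35.6%). The glo1 knockout, the base of the second comparison, can itself differ from wild type, and this was not tested. Mean ctsb was 35.7 CPM in the glo1 knockout, against 9.19 CPM in wild type and 43.9 CPM in the aldh3a1 knockout. For a1cf the means were 2.05, 8.75 and 1.05 CPM in the same order. For dpp7 they were 35.9, 32.3 and 75.6 CPM, with the glo1 knockout near wild type. How many genes went either way was not counted.

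The 24 genes with the largest changes show the pattern one by one. In the double knockout against the glo1 knockout, 11 of the 12 rises were again positive and 3 passed, and all 12 falls were again negative and 4 passed. The call for sh3bgr among these was lost without double knockout replicate 4 or 5 or glo1 knockout replicate 5 (edgeR adjusted p = 0.0553, 0.0533 and 0.0527). Without 1 library each, asgr1a (without double knockout replicate 4), nlgn4xb (without double knockout replicate 1) and ugp2 (without double knockout replicate 3) passed too. The difference itself was called for 22 of the 24, among them pde5aa, whose call (edgeR adjusted p = 0.0487) was lost in 14 of 20 fits that left out 1 library. It was not called for samsn1b and crp5, which passed without wild type replicate 2 (edgeR adjusted p = 0.0442) and wild type replicate 3 (edgeR adjusted p = 0.0284). tnfrsf14 had a log2 fold change of 0.44, SE 0.44, edgeR adjusted p = 0.576 in the double knockout against the glo1 knockout, and malat1 one of 0.05, SE 0.10, edgeR adjusted p = 0.804. ctsb had the opposite sign there, -0.33, SE 0.36, edgeR adjusted p = 0.612. The pineal opsin gene parapinopsinb passed with 0.44, SE 0.13, edgeR adjusted p = 0.0326, a call lost in 6 of 10 fits that left out 1 library, with adjusted p up to 0.101 without double knockout replicate 5. her4.1 passed with 0.51, SE 0.13, edgeR adjusted p = 0.0145, and not without double knockout replicate 5 (edgeR adjusted p = 0.0501) or glo1 knockout replicate 5 (edgeR adjusted p = 0.0542). Among the decreases, crp5 was the nearest to its first value, with -1.9, SE 0.43, edgeR adjusted p = 0.00929, and a1cf the farthest, with -0.19, SE 0.42, edgeR adjusted p = 0.828.

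**Figure D5:**
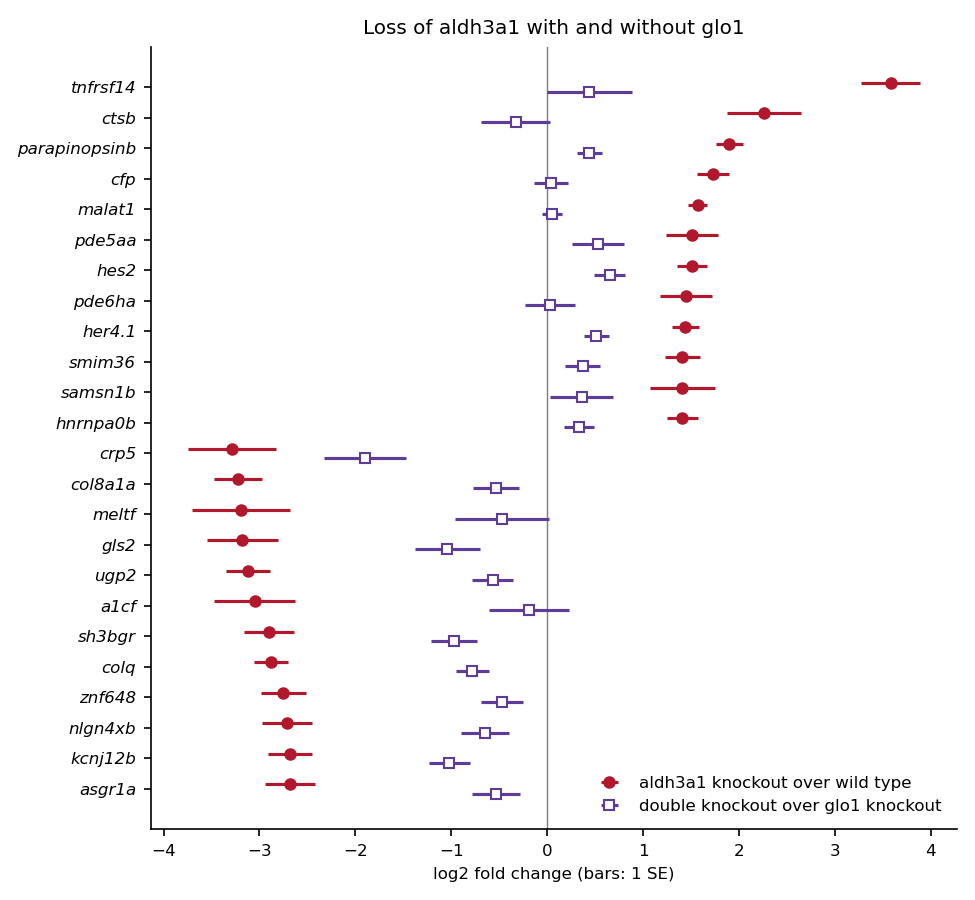
Log2 fold change with bars of 1 SE for the 12 largest increases and 12 largest decreases of the aldh3a1 knockout over wild type (filled circles) and the same genes in the double knockout over the glo1 knockout (open squares). The circles reach 3.58 and -3.29, and the squares stay between -1.90 and 0.65.

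In most lists, fewer members passed in either direction in larvae without glo1 than in the first comparison. Over all genes, 4.52% were higher and 6.82% lower in larvae without glo1, and the counts below are to be read against these shares. Mitochondrial ribosomal protein genes rose in 1 of 75 there, splicing genes in 8 of 107, progenitor genes in 3 of 46 and photoreceptor genes in 1 of 69, with medians of 0.05, 0.03, 0.03 and -0.02. Inner retina genes rose in 8 of 59 (median 0.10) and translation factors in 15 of 77. Decreases were called for 11 of 32 astroglia genes, 9 of 33 myelin genes, 20 of 108 axon genes and 10 of 73 channel genes. They were also called for 1 of 60 pronephros genes, 1 of 70 genes of fatty acid oxidation, 1 of 79 fibroblast genes, 5 of 49 cartilage genes and 6 of 78 aryl hydrocarbon receptor and cytochrome P450 genes. Of the epidermal genes, 19 of 75 were higher and 2 lower. Ionocyte genes were higher in 8 and lower in 5 of 52.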

How the data were processed

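RNA from zebrafish larvae was sequenced in 20 libraries, 5 per genotype. The deposited table holds counts of reads per gene ID, made with featureCounts 2.0.3 on GRCz11 per the submitters' processing notes. The kit keeps strand, per the labels' protocols. The aligner, any batch and the strand setting of the counting are not given in the sources used here. Values of overlapping, antisense and near-identical genes are therefore uncertain. Nothing says that the libraries of a genotype came from separate clutches, so the p-values rest on variation among these libraries alone, and that variation may be technical. Equal numbers of replicates were not treated as pairs.

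The counts were filtered with filterByExpr, scaled by TMM and tested with edgeR 4.0.16 (limma 3.58.1, R 4.3.3) by a quasi-likelihood test on all 20 libraries, with Benjamini-Hochberg adjustment over 22234 genes and a threshold of 0.05. Log2 fold changes use a prior count of 0.125. The standard error is the log2 fold change divided by the square root of the F statistic. DESeq2 1.42.0, limma-voom, other scalings, other filters and leaving out each library were alternatives. CPM values, each gene's share of its library's counts on the TMM scale, were computed from the deposited counts. On simulated counts of 22039 genes, 74% of 1.5-fold, 88% of 2-fold and 100% of 3-fold and 4-fold changes were recovered (50 genes each). There were 6 false calls. Only these genes, all above a mean of 1 CPM, were changed, as many up as down. The real comparison had 61.3% of genes called and shifts in RNA composition, so these rates do not carry over to it. Figures were drawn with matplotlib 3.10.9.

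Symbols were found for 29201 of 32520 gene IDs, none of them aldh3a1, so the transcript of the targeted gene was not analysed here. The 66 gene lists were written by hand, 5 further lists of liver, gut, exocrine pancreas, muscle and ribosome were set aside, and 4164 of 4433 listed symbols matched an ID. Members and lists were chosen with earlier results of these data known, so their counts are descriptions. Named genes are the 12 largest increases and 12 largest decreases at 5 CPM or more with no overlap between libraries, and from each list the first 3 symbols and the 4 members of smallest adjusted p. The genes printed from this set were picked after their values were seen, and some genes of the set are not reported here.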

Additional observations from a re-analysis of the deposited data

Results flagged for a closer look

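In 22 of the 426 sets of 5 libraries of one genotype, taking both genotypes for each gene named above and in the observations below, 1 library stood far from the other 4 by Dixon's test at the 95% level. That is 5.16%, and chance flags about 1 in 20 sets. Among aldh3a1 knockout libraries, the one above the rest was seen for ncl at 488 CPM in replicate 2 (others 402 to 426), pcna at 289 CPM in replicate 3 (others 234 to 248) and pdk1 at 7.55 CPM in replicate 2 (others 5.88 to 6.25). The same held for agr2 at 26.6 CPM in replicate 2 (others 19.9 to 21.5), il1b at 1.41 CPM in replicate 5 (others 0.368 to 0.522) and ddit3 at 53 CPM in replicate 2 (others 34.3 to 36.9). Among aldh3a1 knockout libraries, the one below the rest was seen for mbpa at 31.6 CPM in replicate 3 (others 39.1 to 40.9), lamb2 at 23.8 CPM in replicate 4 (others 29 to 31) and rela at 0.390 CPM in replicate 5 (others 0.742 to 0.845). Among wild type libraries, the one above the rest was seen for npy at 8.06 CPM in replicate 4 (others 6.07 to 6.61), fbl at 98.9 CPM in replicate 2 (others 79.5 to 82.3) and vdr (ENSDARG00000070721) at 6.96 CPM in replicate 1 (others 5.15 to 5.58). The same held for rela at 3.45 CPM in replicate 1 (others 2.65 to 2.86), il1b at 2.08 CPM in replicate 5 (others 0.338 to 0.483) and aldh3b1 at 14.9 CPM in replicate 5 (others 7.71 to 9.39). The same held for arnt at 8.56 CPM in replicate 1 (others 6.59 to 7.12), cct2 (ENSDARG00000104674) at 167 CPM in replicate 4 (others 152 to 154) and nfe2l1 at 13.2 CPM in replicate 1 (others 9.86 to 10.6). Among wild type libraries, the one below the rest was seen for prx at 67.6 CPM in replicate 5 (others 89.7 to 95.6), frem3 at 10 CPM in replicate 5 (others 17 to 17.9) and lamb2 at 49.8 CPM in replicate 5. The same held for sptb at 27.9 CPM in replicate 5 (others 39.8 to 44.6). The calls of these genes did not change when the library concerned was left out, with the exception of aldh3b1, which passed as higher without wild type replicate 5 (0.46, edgeR adjusted p = 0.000597).

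For 22 of the 24 genes with the largest changes, the effect of aldh3a1 loss differed between larvae without glo1 and larvae with it, by a test of the difference itself. The numbers in brackets are the log2 fold change of the double knockout over the glo1 knockout minus that of the aldh3a1 knockout over wild type, and the edgeR adjusted p. The genes were chosen for a large value in the second of these, which by itself draws the difference towards the opposite sign. Among the increases the differences were tnfrsf14 (-3.14, 2.32e-04), ctsb (-2.59, 0.00146), parapinopsinb (-1.46, 8.76e-06) and cfp (-1.69, 2.39e-05). Further ones were malat1 (-1.52, 5.20e-07), pde5aa (-0.99, 0.0487), hes2 (ENSDARG00000068168) (-0.86, 0.00424) and pde6ha (-1.42, 0.00829). Further ones were her4.1 (-0.93, 6.79e-04), smim36 (-1.05, 0.00387) and hnrnpa0b (-1.08, 8.78e-04). Among the decreases they were col8a1a (2.69, 1.99e-05), meltf (2.72, 0.00678), gls2 (ENSDARG00000069095) (2.14, 0.00302) and ugp2 (ENSDARG00000005578) (2.55, 1.10e-05). To these come a1cf (2.86, 0.00143), sh3bgr (1.93, 6.27e-04), colq (2.1, 2.80e-06) and znf648 (2.27, 4.16e-05). To these come nlgn4xb (2.06, 1.67e-04), kcnj12b (1.66, 4.82e-04) and asgr1a (2.15, 1.33e-04). The call for pde5aa was lost in 14 of 20 fits that left out 1 library.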

How the results depend on the processing

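The number of genes called between aldh3a1 knockout and wild type was 13637, and it lay between 12847 and 13663 when 1 library was left out. With 1 library left out, 6087 to 6519 genes were higher (6527 with all libraries), 6747 to 7144 lower (7110), 469 to 589 at least 2-fold higher (512) and 2875 to 3334 at least 2-fold lower (3040). A filter of 1 CPM in 5 libraries left 294 genes at least 2-fold higher. Total-count scaling gave 36% higher genes among those called, against 47.9% with TMM. For the double knockout against the glo1 knockout, 1302 to 2271 genes passed with 1 library left out, against 2521, and the test of the difference called 6926 to 8417, against 7905. Correlations of deviations between aldh3a1 knockout and wild type libraries were -0.003 to 0.253 for equal replicate numbers. For unequal numbers they were -0.189 to 0.118. These values do not settle whether libraries of equal number share a clutch or batch. The replicate block gave 13511, 2602 and 7820 calls in these comparisons.

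Of 4258 values of 213 named genes under other settings in the first comparison, 4249 kept direction and call, 3 lost the call, 6 gained it and 0 reversed. Total-count scaling made dusp6 (-0.17, edgeR adjusted p = 0.0373), kdrl (-0.24, edgeR adjusted p = 0.0158), pmela (-0.19, edgeR adjusted p = 0.00928) and irs2 (ENSDARG00000037099) (-0.30, edgeR adjusted p = 0.0117) pass as lower, and irs2 passed with upper-quartile scaling too. In the second comparison gls2 (ENSDARG00000069095) and ugp2 (ENSDARG00000005578) passed with total counts, DESeq2 or the block. The causes were not tested. Of the list counts under other settings, 57 for higher and 25 for lower members moved by more than 1.5 times, and 1263 and 1295 did not. List medians moved by more than the SD between replicates of the list's mean level in 128 cases, 55 of them with total-count and 20 with upper-quartile scaling, and 1192 did not. Depth limits the genes of lowest CPM most.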

Other observations

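Hormone and vitamin pathways gave further values. Thyroid axis genes fell in 8 and rose in 2 of 19 tested members (median -0.10). The receptor gene thrb rose to 60.5 CPM in the knockout against 37.5 CPM in wild type (0.69, SE 0.08). The receptor ID thra (ENSDARG00000052654) fell to 3.57 CPM in the knockout against 7.39 CPM in wild type (-1.05, SE 0.13). The symbol thra is shared with another ID, which is not reported here. The hormone carrier transthyretin, ttr, fell to 3.59 CPM in the knockout against 9.61 CPM in wild type (-1.42, SE 0.22), and the iodide-recycling gene iyd to 1.27 CPM in the knockout against 3.19 CPM in wild type (-1.33, SE 0.22). Interrenal and glucocorticoid genes fell in 15 and rose in 3 of 31. The gluconeogenic gene pck1, a liver gene that glucocorticoids raise in mammals, fell by 1.53 on the log2 scale (SE 0.20), while fkbp5 was at 136 CPM in the knockout against 152 CPM in wild type (edgeR adjusted p = 0.696). Retinoic acid pathway genes rose in 13 and fell in 17 of 50. The retinoic acid carrier gene crabp1 (ENSDARG00000045926) rose to 39.7 CPM in the knockout against 21.9 CPM in wild type (0.86, SE 0.08) and the retinoid receptor gene rxrb fell to 16.1 CPM in the knockout against 28.1 CPM in wild type (-0.81, SE 0.10).

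Cholesterol and fatty acid synthesis genes rose in 15 and fell in 12 of 52 (median 0.09, and -0.01 with total-count scaling). Fatty acid synthase, fasn, rose to 135 CPM in the knockout against 97.6 CPM in wild type (0.47, SE 0.08), and the elongase gene elovl6 to 74.1 CPM in the knockout against 48.2 CPM in wild type (0.62, SE 0.06). In the same list, acsl3a fell to 0.845 CPM in the knockout against 3.46 CPM in wild type (-2.03, SE 0.20). scap fell to 7.4 CPM in the knockout against 15.2 CPM in wild type (-1.03, SE 0.13). Genes of xanthophores, iridophores and of pteridine and purine synthesis fell in 21 and rose in 7 of 50 (4 rose with total-count or upper-quartile scaling). Their summed level overlapped, at 1278.5 to 1361.8 CPM in the aldh3a1 knockout libraries, against 1283.9 to 1423.1 CPM in those of wild type. The purine gene adss2 fell to 5.96 CPM in the knockout against 30.1 CPM in wild type (-2.33, SE 0.19) and xdh, which encodes xanthine dehydrogenase, to 2.64 CPM in the knockout against 9.29 CPM in wild type (-1.82, SE 0.18), whereas the pteridine gene gch2 of xanthophores was at 59.3 CPM in the knockout against 60.4 CPM in wild type (edgeR adjusted p = 0.879). Among hypoxia genes, where 16 rose and 14 fell of 50, the glucose transporter gene slc2a1 (ENSDARG00000007412) was at 2.69, 2.61, 3.41, 2.22 and 2.31 CPM in the knockout against 10.7, 12.4, 10.7, 7.41 and 7.93 CPM in wild type (log2 fold change -1.89, SE 0.16, edgeR adjusted p = 7.58e-10). Every knockout library lay below every wild type library, as in 23.1% of all genes tested. The oxygen-sensing factor gene hif1a was at 153 CPM in the knockout against 146 CPM in wild type (edgeR adjusted p = 0.251).

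In the remaining lists the calls were divided. Thrombocyte genes rose in 3 and fell in 5 of 19 (2 fell with the filter of 1 CPM), lymphoid genes in 6 and fell in 8 of 29, and large chromatin regulators in 23 and fell in 25 of 87 (10 rose with total-count scaling). Cytosolic aminoacyl-tRNA synthetase genes, whose products charge tRNA, rose in 7 and fell in 2 of 23 (4 and 4 with total-count scaling). Genes of the amino acid response and serine synthesis rose in 15 and fell in 12 of 50, p53 targets and apoptosis genes in 21 and fell in 16 of 71, and immediate early genes in 11 and fell in 11 of 54 (7 fell without aldh3a1 knockout replicate 4, and 18 with total-count scaling). Exocrine pancreas genes, set aside from the lists, rose in 1 and fell in 22 of 28.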
